A study of Mus musculus with 4 samples.

Results

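The genes of transforming growth factor beta (TGF-beta) and its SMAD signal carriers were examined in 2 STAT3 peak lists from mouse spinal cord. They are the 3 ligand genes Tgfb1, Tgfb2 and Tgfb3, the 2 receptor genes Tgfbr1 and Tgfbr2, the signalling SMAD genes Smad2, Smad3 and Smad4, and the inhibitory SMAD genes Smad6 and Smad7. These 10 of 21887 protein-coding RefSeq genes were chosen by name, and all peaks with a centre inside a gene or within 50 kb of it were taken. That gave 31 of 36249 SCI peaks and 83 of 88765 sham peaks.

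STAT3-bound DNA was recovered by chromatin immunoprecipitation with a rabbit anti-STAT3 antibody and sequenced (ChIP-seq). SCI denotes C57BL/6 mice 7 days after a moderate contusion of 60 kdyn at thoracic level 9 of the cord exposed by laminectomy, and sham denotes C57BL/6 mice 7 days after laminectomy at that level without contusion. Each condition has 1 ChIP library made from the pooled epicentre tissue of 3 mice, dissociated to single cells with no sort for a cell type described, and 1 input library that was not analysed here. There are no replicates, so differences between SCI and sham have no replicate check and no test was run. The lists hold no expression values, so the cell makeup of the tissue was not checked.

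TGF-beta ligands bind the type II receptor encoded by Tgfbr2, which recruits and phosphorylates the type I receptor encoded by Tgfbr1. The active type I receptor phosphorylates SMAD2 and SMAD3, which enter the nucleus in complexes with SMAD4. These complexes bind short DNA elements that contain GTCT or its complement AGAC. SMAD6 and SMAD7 dampen the signal, SMAD7 mainly at the TGF-beta receptor and SMAD6 mainly in the related BMP branch. In injured spinal cord, TGF-beta is released by platelets, macrophages, microglia and astrocytes, and it is known for promoting glial scar formation and the deposition of chondroitin sulfate proteoglycans.

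Each peak carries a score, the authors' own value for its strength, which was 5 at the lowest in both lists. The sources used here do not state the scale of the score, so scores served mainly to rank peaks within their own list. A rank is given as the top percent of that list. Only a check with scores of at least 10 put the same threshold on both lists, whose scores may not be on a common scale. A position was called shared when an SCI and a sham peak overlapped by at least 1 bp. Read depth is unknown for both libraries, and the sham list was 2.45 times as long as the SCI list.

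At the 6 members with a promoter window, no peak of either condition lay within 1 kb of the start of that window's transcript. RefSeq promoter windows of GRCm38.p6, with 250 bases before and 50 bases after a start, were at hand for 6 of the 10 members in 7 windows: Tgfb1, Tgfb2, Tgfbr1 with 2 starts, Tgfbr2, Smad3 and Smad6. The SCI peak closest to one of these starts was centred 4.14 kb upstream of Tgfbr2, and the closest sham peak 4.23 kb downstream of the Tgfb2 start. Peaks over promoter windows were rare in general, 0.682% of all RefSeq windows for SCI and 1.69% for sham. The share of all starts with a peak within 1 kb was not counted. Smad7, a member without a window, had an SCI peak 643.5 bp and a sham peak 1111.5 bp inside its end with the lower coordinate. On either strand, the STAT motif TTCNNNGAA and its stricter form TTCCNGGAA occurred in none of the 7 windows, against 8.30% and 1.15% of 32851 RefSeq windows. This says only that these letters are not in these windows.

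Letters of the SMAD element were present in promoters of all 6 of these genes, and most promoters of the genome hold them too. GTCT or AGAC occurred in at least 1 window of each of the 6 genes and in 88.0% of all windows. CAGAC or its complement GTCTG, which overlap those letters, occurred in windows of Tgfb2, Tgfbr1 and Tgfbr2 and in 49.6% of all. The palindrome GTCTAGAC, which joins both short forms, occurred in Smad6 alone among these genes and in 0.213% of all windows. Smad6 is a known target of BMP SMADs. Its window is shown for the palindrome, in capitals, and that of Tgfb2 for its 2 CAGAC elements, in capitals. Both are given 5′ to 3′ on the minus strand, chr9:64022010-64022309 and chr1:186705940-186706239.
Smad6: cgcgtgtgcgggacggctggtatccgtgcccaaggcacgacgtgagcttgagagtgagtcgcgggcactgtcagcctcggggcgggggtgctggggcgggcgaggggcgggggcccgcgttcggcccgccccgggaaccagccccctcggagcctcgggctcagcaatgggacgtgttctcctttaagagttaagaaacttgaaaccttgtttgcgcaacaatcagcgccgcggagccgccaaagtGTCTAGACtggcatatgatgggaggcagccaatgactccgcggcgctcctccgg
Tgfb2: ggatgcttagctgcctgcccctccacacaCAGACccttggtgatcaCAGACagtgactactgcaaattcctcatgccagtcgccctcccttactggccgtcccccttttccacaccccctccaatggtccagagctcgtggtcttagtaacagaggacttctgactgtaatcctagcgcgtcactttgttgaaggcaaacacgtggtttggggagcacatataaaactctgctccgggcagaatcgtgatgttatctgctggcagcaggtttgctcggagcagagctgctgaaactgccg
The palindrome in Smad6 began 4 bases before the start used by RefSeq. The CAGAC elements of Tgfb2 began 221 and 204 bases before its start.

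All 10 genes had a peak of each condition in their windows, which is near what genes of such length generally had. An SCI peak lay inside or within 50 kb of 84.2% of all protein-coding genes, a sham peak of 95.6% and both of 82.6%. Averaged over the length deciles of the 10 genes, these shares were 91.5 and 98.2%. Within 5 kb, 7 of the 10 genes had an SCI peak (43.9% of all genes, 67.8% averaged over the length deciles) and 10 had a sham peak (66.7 and 88.9%). Inside the gene itself, 6 had an SCI peak (33.4% of all, 61.7% by length) and 10 had a sham peak (51.0 and 84.1%). Peaks of both conditions lay inside 6 of the genes (28.1% of all). The other 4, Tgfb2, Tgfb3, Tgfbr1 and Smad4, held sham peaks alone inside (22.9% of all). The shares of 28.1 and 22.9% are not adjusted for gene length.

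**Figure D1:**
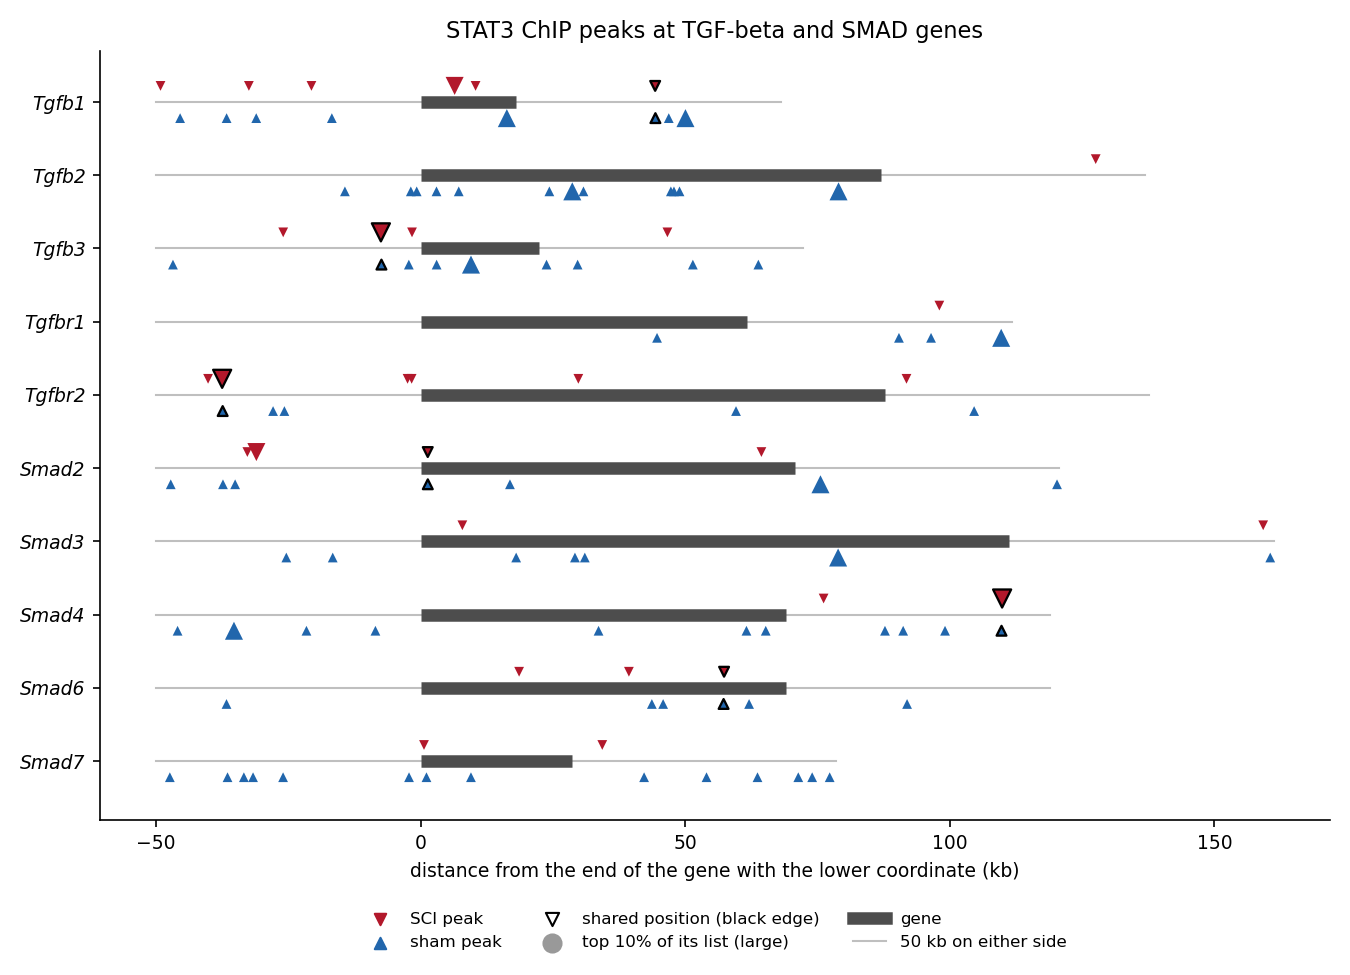
SCI peaks (red, above) and sham peaks (blue, below) along each gene (thick bar) and 50 kb on either side (thin line), in kb from the end of the gene with the lower coordinate. Large symbols are in the top 10% of their list and black edges mark shared positions; Tgfb2 carries 9 sham peaks and no SCI peak inside the gene.

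Sham peaks outnumbered SCI peaks at 9 of the 10 genes. Jointly the windows held 2.68 sham peaks for each SCI peak (95% exact binomial interval 1.75 to 4.19, counting error only), against 2.45 over the whole lists. More sham than SCI peaks within 50 kb was also the case at 83.0% of all protein-coding genes, and the reverse, seen here at Tgfbr2, at 7.05%. The windows span 1.63 Mb and held 1.91 SCI peaks per 100 kb (95% exact Poisson interval 1.296 to 2.71) and 5.11 sham peaks per 100 kb (4.07 to 6.33). In the joined windows of all protein-coding genes the densities were 1.51 for SCI and 3.73 for sham. The sham interval at the 10 genes lay above 3.73, while the SCI interval included 1.51. The densities over all genes are not matched for gene length, and the intervals take peaks as independent of each other. The SCI interval rests on fewer peaks and is wider relative to its density. Since the ratio interval of 1.75 to 4.19 included 2.45, these densities do not set the 2 conditions apart.

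**Figure D2:**
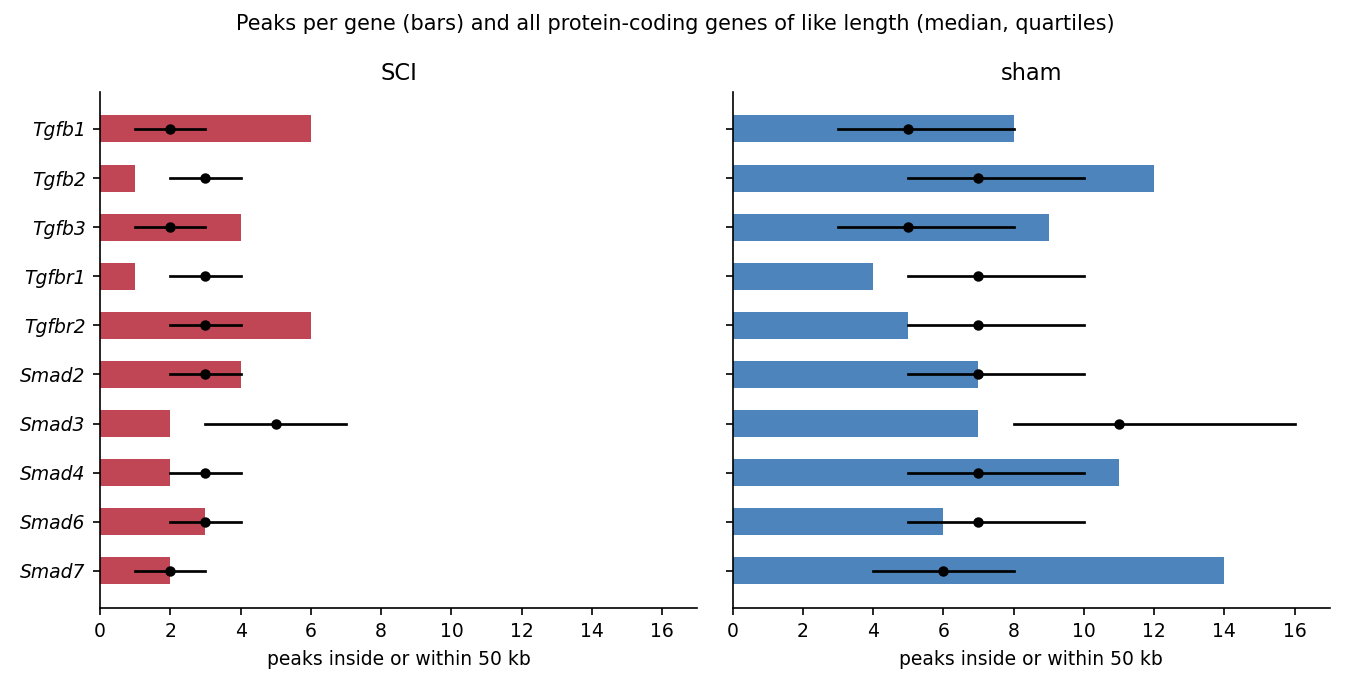
Bars give the number of SCI peaks (left) and sham peaks (right) inside or within 50 kb of each gene; dots and black lines give the median and quartiles over all protein-coding genes of the same length decile. Tgfb1, Tgfb3 and Tgfbr2 stand above the upper quartile in SCI, and Tgfb2, Tgfb3, Smad4 and Smad7 in sham.

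Among the ligand genes, Tgfb1 held the highest-ranked SCI peak inside any of the 10 genes, and no sham peak overlapped it. Tgfb1 (gene ID 21803, chromosome 7, 25687002 to 25705077) encodes a ligand with roles in wound repair and immune control. Its window held 6 SCI and 8 sham peaks. In its length decile the median was 2 SCI and 5 sham peaks, and 5.48% of these genes had at least 6 SCI peaks. The main SCI peak, at 25693353 to 25693516, reached 21.4 (top 2.78%), with its centre 6.43 kb downstream of the start. The other SCI peak inside the gene, at 25697309 to 25697472, scored 5.32 (top 84.0%). The single sham peak inside, at 25703205 to 25703394, reached 21.5 (top 7.41% of the sham list), with its centre 9865 bp from the main SCI peak. Each condition had a peak in the top 10% inside Tgfb1, at different places. Of the other SCI peaks, 2 lay inside Bckdha and 1 inside Exosc5, with scores of 9.95, 6.95 and 5. The shared position of this window was 26.2 kb away inside Hnrnpul1, an RNA-binding protein gene, where the SCI peak at 25731243 to 25731406 scored 5.82 (top 77.3%) and the sham peak at 25731277 to 25731466 scored 8.91 (top 42.8%). Hnrnpul1 also held a sham peak of 95 bp with a score of 51.2 (25737003 to 25737097, top 0.324%) and no SCI peak over it. Narrow peaks of this kind made up 0.995% of the sham list and 56.6% of its top 1%.

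Tgfb2 had the largest ratio of the 10 genes, with 1 SCI and 12 sham peaks. This gene (gene ID 21808, chromosome 1, 186622787 to 186709697) encodes a ligand with roles in development. Of its sham peaks 9 lay inside and 2 more within 5 kb. The only SCI peak, at 186750273 to 186750436, lay 40.7 kb away inside A430105J06Rik and scored 7 (top 52.7%). Of 898 protein-coding genes with 9 or more sham peaks inside (4.10% of all), 26 had no SCI peak inside, 2.90%. This set was defined by the sham count of Tgfb2 itself and chosen after the values were seen. It therefore cannot show how rare the pattern is. In the length decile of Tgfb2, 70.8% of genes had an SCI peak inside. The 9 sham peaks inside scored between 5.49 and 29.5. The highest, at 186701733 to 186701785, was 53 bp wide, lay in the top 2.92% and was 4.23 kb downstream of the start shown above, where the gene overlaps Gm35655. The next, at 186651355 to 186651544, scored 19.05 in the top 9.96%. The other 7 inside were of the usual sham width of 190 bp and scored from 5.49 to 13.7.

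Tgfb3 had its SCI peaks beside the gene and not in it. It encodes another ligand of the same family (gene ID 21809, chromosome 12, 86056743 to 86079041), and its window held 4 SCI and 9 sham peaks. The highest SCI peak, at 86049159 to 86049322, scored 17.9 (top 5.22%), 7.50 kb from the gene inside Ttll5, a tubulin-modifying enzyme gene. A sham peak at 86049250 to 86049439 with a score of 9.27 (top 40.4%) overlapped it. Another SCI peak lay 1.62 kb from Tgfb3 at 86055040 to 86055203, with a score of 12.0 (top 16.8%). The nearest sham peak there, at 86054428 to 86054617, scored 5.69 and was centred 599 bp away, so both conditions had a peak close by without overlap. Of the other SCI peaks, that inside Ift43 at 86103298 to 86103461 scored 11.9 and that inside Ttll5 at 86030701 to 86030864 scored 5. Inside Tgfb3 there were 2 sham peaks, the higher at 86066171 to 86066360 with a score of 20.3 (top 8.51%).

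The receptor genes differed from each other, with few peaks at Tgfbr1 and more SCI than sham peaks at Tgfbr2. Tgfbr1, the type I receptor kinase gene (gene ID 21812, chromosome 4, 47353222 to 47414926), had 1 SCI and 4 sham peaks in its window. In its length decile, the median was 3 SCI and 7 sham peaks, and 88.9% of genes had at least 4 sham peaks. The SCI peak, at 47451164 to 47451327 and 36.3 kb from the gene, scored 8.00 in the top 41.5%. The nearest sham peak was centred 1570 bp from it at 47449581 to 47449770, with a score of 10.5. Inside Tgfbr1 lay 1 sham peak with a score of 5.60 (top 84.1%). The highest sham peak of the window, at 47462836 to 47463025, scored 20.9 (top 7.89%) and lay 48.0 kb away in no gene.

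Tgfbr2, the type II receptor gene (gene ID 21813, chromosome 9, 116087695 to 116175363), had 6 SCI and 5 sham peaks in its window. Within 5 kb the numbers were 4 and 1. Of genes in its length decile, 10.8% had at least 6 SCI peaks and 80.9% at least 5 sham peaks. The excess of SCI peaks rested on weak ones: the 4 within 5 kb scored between 5 and 6.30, and none ranked above the top 67.2% of the SCI list. They lay at 116085151 to 116085314, at 116085925 to 116086088, inside the gene at 116117421 to 116117584, and upstream at 116179426 to 116179589. The strongest SCI peak of the window, at 116050118 to 116050281 and 37.5 kb from Tgfbr2, scored 18.1 (top 5.002%) and lay inside Gadl1, an amino acid decarboxylase gene. A weaker SCI peak in Gadl1, at 116047456 to 116047619, scored 5.32. The sham peak that overlapped the strongest one, 116050202 to 116050391, scored 13.05 (top 22.1%). Inside Tgfbr2 itself the SCI peak at 116117421 to 116117584 scored 5.95, and the sham peak at 116147202 to 116147391, where Gm31292 overlaps the gene, scored 5.93.

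The genes of the receptor-activated SMADs, Smad2 and Smad3, had peaks of both conditions inside, and only Smad2 had a shared position. Smad2 (gene ID 17126, chromosome 18, 76241090 to 76311748) had 4 SCI and 7 sham peaks in its window. The shared position was 1354.5 bp (SCI) inside the end with the lower coordinate, where the SCI peak at 76242363 to 76242526 scored 5.204 (top 89.5%) and the sham peak at 76242357 to 76242546 scored 5.14 (top 91.6%). The centres were 7 bp apart, the closest pair of all 10 genes, and both peaks were among the weakest of their lists. The highest SCI peak, at 76209979 to 76210142, scored 16.7 (top 6.56%) and lay 31.0 kb from the gene. The highest sham peak lay on the other side, 4.90 kb from the gene at 76316555 to 76316744, with a score of 37.5 (top 1.20%) and no SCI peak over it. The other SCI peaks scored 5.66, outside the gene, and 5.32, inside Smad2 at 76305409 to 76305572.

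Smad3 is the longest of the 10 genes and had few peaks for its length. It (gene ID 17127, chromosome 9, 63646766 to 63757994) had 2 SCI and 7 sham peaks, where genes of its length decile had a median of 5 SCI and 11 sham peaks. The SCI peak inside, at 63654577 to 63654740, scored 5.88 (top 75.4%). The other SCI peak, 48.0 kb away at 63805895 to 63806058, scored 5.32 (top 84.0%). Of the 4 sham peaks inside, the highest at 63725567 to 63725756 scored 23.5 (top 5.78%) and was centred 71003 bp from the nearest SCI peak. No sham peak of the window overlapped an SCI peak, and the closest pair of centres, beyond the gene, was 1335 bp apart.

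Smad4, the gene of the partner that both SMAD branches share, had no SCI peak inside and 3 sham peaks. Its window (gene ID 17128, chromosome 18, 73634790 to 73703791) held 2 SCI and 11 sham peaks. The higher SCI peak, at 73744590 to 73744753, scored 18.9 (top 4.37%) inside Elac1, a tRNA-processing enzyme gene 40.9 kb away, and overlapped a sham peak at 73744464 to 73744653 with a score of 7.02 (top 60.6%). The other, 7.15 kb from the gene at 73710859 to 73711022, scored 5.93. The 3 sham peaks inside Smad4 scored 8.43, 5.81 and 9.51. The highest-ranked sham peak of all 10 windows lay 35.3 kb from Smad4 at 73599502 to 73599551, with a score of 60.4 (rank 116, top 0.131%). It was 50 bp wide, against the usual 190 bp.

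The inhibitory SMAD genes differed in where their SCI peaks ranked. Smad6 (gene ID 17130, chromosome 9, 63953076 to 64022085) had 3 SCI and 6 sham peaks, and all 3 SCI peaks and 4 sham peaks lay inside the gene. The SCI peak at 63971610 to 63971773 scored 12.2 (top 16.3%), that at 64010339 to 64010502 scored 10.6 (top 22.9%) and that at 63992356 to 63992519 scored 5. The middle one in rank was shared with the best-ranked sham peak of the window, at 64010235 to 64010424 with a score of 14.9 (top 17.2%), 11.6 kb (SCI) and 11.7 kb (sham) downstream of the start that carries the GTCTAGAC element shown above. It was the shared position inside a member with the better ranks in both lists. A further sham peak, at 64015054 to 64015243, scored 12.4 and was 6.91 kb downstream of that start.

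Smad7, the gene of the inhibitor that TGF-beta itself induces, had the largest number of sham peaks and only weak SCI peaks. Its window (gene ID 17131, chromosome 18, 75367365 to 75395935) held 2 SCI and 14 sham peaks. In its length decile 64.9% of genes had at least 2 SCI peaks and 3.52% at least 14 sham peaks. The SCI peaks scored 5.59 inside the gene, at 75367927 to 75368090 (top 81.8%), and 5.57 at 75401612 to 75401775, 5.76 kb from it. A sham peak at 75368382 to 75368571 with a score of 5.51 (top 85.6%) was centred 468 bp from the SCI peak inside the gene. Sham scores in this window ran from 5.08 to 13.04, the best at 75421298 to 75421487 in the top 22.1%, so none of the 14 reached the top 10%. A sham peak inside Gm20544, 2.18 kb from Smad7 at 75365086 to 75365275, scored 11.4 (top 28.4%).

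**Figure D3:**
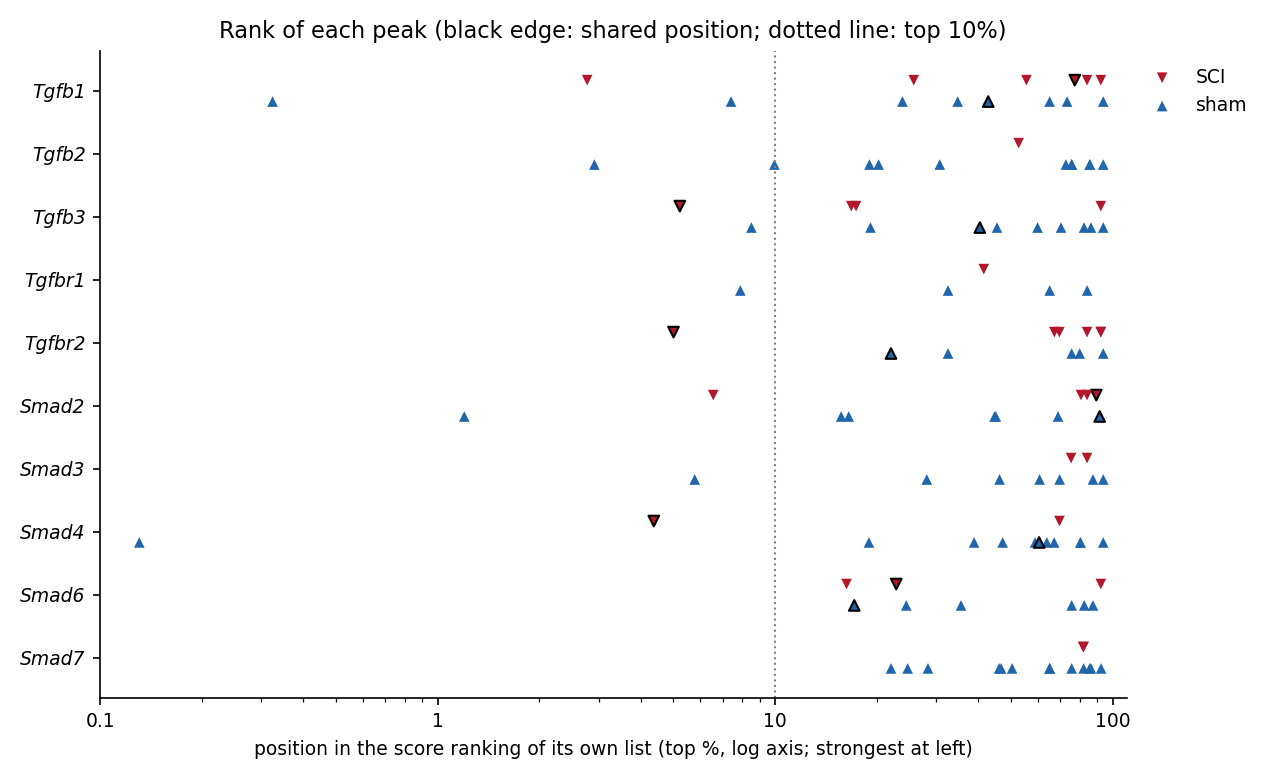
Place of every peak in the score ranking of its own list, as top percent on a log axis with the strongest at the left; SCI peaks are red and sham peaks blue, and black edges mark shared positions. SCI peaks left of the dotted 10% line are found at Tgfb1, Tgfb3, Tgfbr2, Smad2 and Smad4, and sham peaks at all genes but Tgfbr2, Smad6 and Smad7.

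At these genes 5 SCI and 9 sham peaks were in the top 10% of their list, and none of these SCI peaks overlapped one of these sham peaks. Of the 10 genes, 5 had such an SCI peak within 50 kb (22.5% of all protein-coding genes, 27.0% averaged over the length deciles) and 7 had such a sham peak (45.0 and 54.1%). The 5 SCI peaks were 16.1% of the 31 (95% exact interval 5.45 to 33.7%) and the 9 sham peaks were 10.8% of the 83 (5.08 to 19.6%), against 10.1% of the SCI list and 10% of the sham list, and both intervals include those shares. The bulk of the peaks was weak. The median score was 5.93 for the SCI peaks and 7.02 for the sham peaks of these genes, against 7.37 over the SCI list and 8.07 over the sham list. Of the 5 best SCI peaks, 1 lay inside a member, that of Tgfb1, and 3 overlapped a sham peak, those at Tgfb3, Tgfbr2 and Smad4, by 73, 80 and 64 of their 164 bp. Of the 9 best sham peaks, 5 lay inside a member and 0 were shared with SCI. How often top 10% peaks are shared over the whole lists was not counted, so these counts have no background.

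Shared positions were about as frequent here as elsewhere. An SCI peak over a sham peak was found at 6 positions, 19.4% of the 31 SCI peaks (7.45 to 37.5%) and 7.23% of the 83 sham peaks (2.70 to 15.1%), against 21.6% of all SCI peaks and 8.84% of all sham peaks. They lay at 6 of the 10 genes, Tgfb1, Tgfb3, Tgfbr2, Smad2, Smad4 and Smad6, and 41.5% of all protein-coding genes had a shared position within 50 kb (49.0% averaged over the length deciles). Only those of Smad2 and Smad6 were inside the member, while 4 were inside the neighbours Hnrnpul1, Ttll5, Gadl1 and Elac1. The SCI peak was in the top 10% of its list at 3 of them and the sham peak at 0. With an overlap of at least 50% of the SCI peak required, 3 shared positions were left, those of Tgfb1, Smad2 and Smad6, and 0 of them had an SCI peak in the top 10%. A further 2 SCI peaks, at Tgfb3 and Smad7, had a sham centre within 1 kb without overlap.

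Sharing went with the form of the score. For some peaks, adding 1 to the score, dividing by 2 and squaring gave a whole number to within 0.0001. These made up 41.9% of the 31 SCI peaks and 27.7% of the 83 sham peaks, against 33.1% of the SCI list and 22.9% of the sham list. Of the 13 SCI peaks with this form 0 were shared (up to 24.7% by the exact interval), and of the other 18, 6 were shared. Over the whole SCI list the shares were 4.82% and 29.97%. A score of 5 has this form, and 5 of the 31 SCI peaks had that lowest score. The sources used here do not say how the score was formed.

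Several peaks lay near the 50 kb limit. Just inside it were an SCI peak 49.1 kb from Tgfb1 (score 9.95, top 25.8%), a sham peak 49.6 kb from Smad2 (6.56) and the sham peak 48.0 kb from Tgfbr1, the only one in the top 10% at that gene. Just outside it were an SCI peak 51.5 kb from Tgfbr2 (9.90, top 26.6%) and a sham peak 50.5 kb from Tgfb3 (5.32). A stronger sham peak lay 53.7 kb from Smad7, with a score of 29.1 (top 3.05%).

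Among 85 other genes of the wider TGF-beta pathway, 50 had an SCI peak inside or within 5 kb and 67 a sham peak, 58.8 and 78.8%. The averages over the length deciles of these genes were 54.7 and 76.4%. Both conditions had a peak at 43 (37.3% of all protein-coding genes), SCI alone at 7, sham alone at 24 (29.3% of all) and neither at 11. Shares of all protein-coding genes in this paragraph are not adjusted for gene length. The 7 with an SCI peak alone, 8.24% against 6.51% of all protein-coding genes, were Thbs1, Inhbb, Bmp4, Tgif2, Id1, Col1a2 and Snai2. Genes with no peak of either condition included Emilin1, Bmp2, Nodal, Grem1, Ccn2, Id2, Acta2, Cdkn1a, Cdkn2b and Snai1, which are 2.29 to 15.3 kb long.

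**Figure D4:**
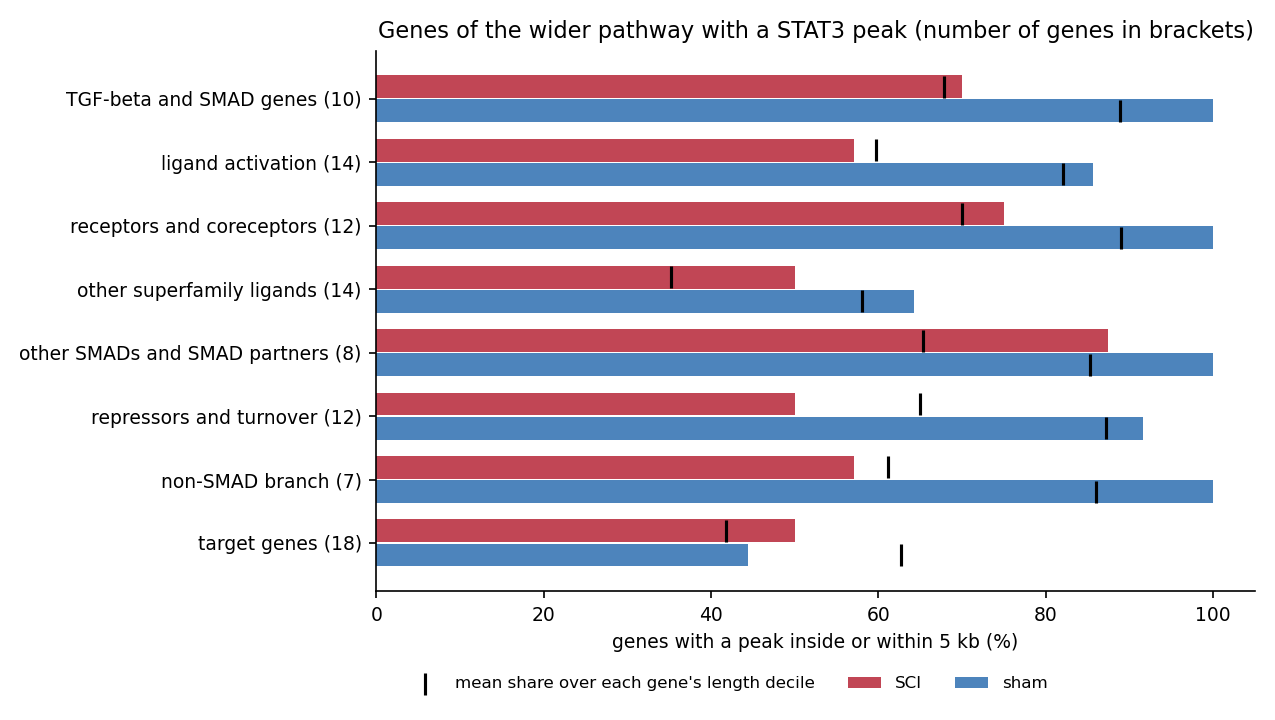
Percent of genes with an SCI peak (red) or a sham peak (blue) inside or within 5 kb, for the 10 TGF-beta and SMAD genes and 7 lists of other pathway genes; black ticks give the mean share of all protein-coding genes over the length decile of each listed gene. The list of target genes has the lowest share with a sham peak, 44.4%, below its tick at 62.7%.

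Promoter windows of 3 pathway genes lay under an SCI peak and of 2 under a sham peak, and Bmpr1b was the gene with both. Over all RefSeq windows 0.682% lay under an SCI peak and 1.69% under a sham peak. These shares are by window and the counts by gene. The number of windows of the pathway genes was not counted, so whether the counts lie above or below the shares is not known. Bmpr1b encodes a type I receptor for BMPs (gene ID 12167, chromosome 3). Its SCI peak at 141931639 to 141931802 scored 11.4 (top 19.6%) and its sham peak at 141931679 to 141931868 scored 6.56 (top 69.2%), with 124 bases in both. Ltbp1 encodes a protein that holds latent TGF-beta in the matrix, and the SCI peak over a start of this gene, on chromosome 17 at 75178739 to 75178902, scored 5.64 (top 80.8%). Postn encodes periostin, a matrix protein induced by TGF-beta, and the sham peak at its start, on chromosome 3 at 54358981 to 54359170, scored 8.30 (top 48.1%). The windows are shown with the bases under the SCI peak (Bmpr1b and Ltbp1) or the sham peak (Postn) in capitals, 5′ to 3′, for chr3:141931539-141931838 on the minus strand, chr17:75178531-75178830 on the plus strand and chr3:54359017-54359316 on the plus strand.
Bmpr1b: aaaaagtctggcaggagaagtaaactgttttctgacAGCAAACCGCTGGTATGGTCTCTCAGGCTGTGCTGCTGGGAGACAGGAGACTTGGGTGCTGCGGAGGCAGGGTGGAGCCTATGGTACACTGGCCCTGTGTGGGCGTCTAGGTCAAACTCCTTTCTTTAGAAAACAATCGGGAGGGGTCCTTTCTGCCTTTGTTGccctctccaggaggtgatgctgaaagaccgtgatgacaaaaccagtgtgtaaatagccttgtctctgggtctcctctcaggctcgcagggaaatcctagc
Ltbp1: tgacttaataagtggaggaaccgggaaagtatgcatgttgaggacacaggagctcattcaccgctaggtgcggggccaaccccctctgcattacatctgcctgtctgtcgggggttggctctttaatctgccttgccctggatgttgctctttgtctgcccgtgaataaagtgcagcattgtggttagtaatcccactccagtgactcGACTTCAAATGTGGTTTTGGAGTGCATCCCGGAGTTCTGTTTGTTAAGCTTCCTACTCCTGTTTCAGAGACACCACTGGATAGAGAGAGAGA
Postn: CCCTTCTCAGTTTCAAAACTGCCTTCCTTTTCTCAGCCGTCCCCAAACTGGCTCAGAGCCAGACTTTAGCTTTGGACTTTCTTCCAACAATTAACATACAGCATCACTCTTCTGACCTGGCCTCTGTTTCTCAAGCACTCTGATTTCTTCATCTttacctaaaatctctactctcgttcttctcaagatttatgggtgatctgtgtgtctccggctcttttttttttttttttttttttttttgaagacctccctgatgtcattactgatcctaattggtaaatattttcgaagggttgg
The capitals hold GTCT or AGAC in all 3 windows and CAGAC or its complement in Postn, and TTCNNNGAA in none. The other gene with an SCI peak over its window was Gdf15, a stress-induced member of the ligand family, with a score of 7.

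Genes that store and activate the ligands had an SCI peak inside or within 5 kb in 8 of 14 cases and a sham peak in 12. That is 57.1 and 85.7%, close to the 59.8 and 82.1% averaged over their length deciles. The same range of 5 kb applies to the lists below unless 50 kb is stated. Ltbp1 held the best SCI peak of the whole pathway, inside the gene at 75246316 to 75246479 with a score of 33.1 (rank 177, top 0.488%). The best sham peak of Ltbp1, at 75245829 to 75246018, scored 14.6 and did not overlap it. At Fbn1, encoding the microfibril protein fibrillin that binds latent complexes, the best SCI peak scored 16.7 (top 6.61%) and overlapped the best sham peak, which scored 23.1 (top 6.09%). Itgav, encoding the integrin chain that takes part in releasing the ligand, had 6 sham peaks and no SCI peak within 5 kb, the best with a score of 44.2 (top 0.618%).

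Other receptors and coreceptors had an SCI peak in 9 of 12 cases and a sham peak in 12, 75 and 100%, against 69.99 and 89.0% averaged over their length deciles. Acvr1, a type I receptor of the BMP branch, held an SCI peak on chromosome 2 (58544537 to 58544700) that scored 28.3 (rank 333, top 0.919%). The best SCI peak of Bmpr1b scored 21.5 (top 2.70%) and did not overlap a sham peak. Bmpr1a had 6 sham peaks and no SCI peak within 5 kb, the best with a score of 27.6 (top 3.64%). Other ligands and ligand antagonists had an SCI peak in 7 of 14 cases and a sham peak in 9, 50 and 64.3%, against 35.2 and 58.1% by length decile. Bmp4, encoding a BMP ligand, had 3 SCI peaks and no sham peak within 5 kb, and 8 SCI and 4 sham peaks within 50 kb. More SCI than sham peaks within 50 kb, the case at 7.05% of all protein-coding genes, were present at 3 of these 14, the others being Bmp7 (6 SCI and 3 sham) and Bmp2 (4 SCI and 2 sham). Elsewhere in the wider pathway this was so at 1 of the 18 target genes, Col1a2, and at 0 genes of every other list. The best SCI peak of Bmp4, inside the gene on chromosome 14 at 46386703 to 46386866, scored 16.3 (top 7.17%). Mstn, encoding myostatin, had a shared position 2.22 kb (SCI) from the gene, with an SCI score of 13.1 and a sham score of 23.6, and Gdf11 had 6 sham peaks and no SCI peak within 5 kb.

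The remaining lists hold the machinery and the targets of the SMADs. Of the other SMADs and their partners, 7 of 8 had an SCI peak and 8 a sham peak, 87.5 and 100%, against 65.4 and 85.4% by length decile. The best SCI peaks of this list, at the coactivator gene Ep300 and the SMAD anchor gene Zfyve9, scored 10.4 and 10.3. Smad1, of the BMP branch, had 6 sham peaks and no SCI peak within 5 kb. Of the repressors and turnover genes 6 of 12 had an SCI peak and 11 a sham peak, 50 and 91.7%, against 64.98 and 87.3% by length decile. The best SCI peaks were at the ubiquitin ligase gene Nedd4l (score 15.5, top 8.33%) and the deubiquitinase gene Usp15 (14.7, top 9.62%). Among genes with no SCI peak within 5 kb, the repressor gene Tgif1 had the best sham peak (54.1, top 0.242%), 4971.5 bp away. Within 50 kb Tgif1 had 5 SCI and 11 sham peaks. Of the genes of the branch that does not use SMADs 4 of 7 had an SCI peak and 7 a sham peak, 57.1 and 100%, against 61.1 and 86.0% by length decile. The best peak of this branch in SCI, at the p38 kinase gene Mapk14, was shared and scored 10.6 in SCI and 21.2 in sham. The best SCI peak of the ubiquitin ligase gene Traf6 scored 7.37.

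Within 5 kb, known target genes were the list with fewer genes at a sham peak than at an SCI peak. Within 50 kb, Col1a2 alone of these 18 genes had more SCI than sham peaks. An SCI peak was present at 9 of 18 (50%, against 41.8% averaged over the length deciles) and a sham peak at 8 (44.4%, against 62.7%). Zeb2, a repressor gene of the EMT program, had the best SCI peak of this list with a score of 14.4 (top 10.2%). The sham peak of Zeb2 scored 22.4 (top 6.62%) and overlapped a different SCI peak of that gene. Fn1, encoding fibronectin, came next in SCI with a score of 8.80 (top 33.4%), and its best sham peak scored 32.2 (top 2.16%). Id3 had 3 sham peaks and no SCI peak within 5 kb, the best with a score of 34.3 (top 1.69%). Ccn2, a matrix-associated growth factor gene induced by TGF-beta, had no peak within 5 kb in either condition, and 4 SCI and 7 sham peaks within 50 kb.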

How the data were processed

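Reads were aligned with Bowtie2 to mm10, per the submitters' processing notes. The sources used here name no peak caller, control or threshold. Both deposited lists give 1 score per peak and a −log10 value where their layout places a q-value, which lay between 3.22 and 4.36 for the SCI peaks and between 3.27 and 4.05 for the sham peaks of these genes. The list names give the sample titles and so the condition. No test was run, since each condition has 1 library. Only peaks on the autosomes, X and Y entered. Gene positions and promoter windows came from RefSeq (GRCm38.p6, with mm10 coordinates); the gene table has no strand. Length deciles were formed over 21887 protein-coding genes. Depth per library is unknown, and the intervals cover counting error only. The members and lists were chosen with earlier results of these data known. All 10 members are named, with all their SCI peaks. The sham peaks named are the shared ones, those in the top 10% and the best of each member, plus some chosen after their values were seen. For each list, the 2 genes with the best SCI peak within 5 kb and the best sham gene without one are named, except for a gene that is not reported here. Postn, Gdf15, Ccn2, Bmp2 and Bmp7 were named after their values were seen. The tools were matplotlib 3.10.9, scipy 1.17.1, pandas 2.3.3 and numpy 2.4.6 under Python 3.11.15. The counting was tested on simulated data. No genome sequence was used, so the sequences under peaks outside promoter windows were not read.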

Additional observations from a re-analysis of the deposited data

How the results depend on the processing

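The numbers of peaks followed the window and the score threshold. With centres inside the gene only there were 10 SCI and 29 sham peaks, within 5 kb 14 and 35, within 10 kb 17 and 38, and within 100 kb 48 and 125. Keeping the upper part of each list, from its median score up, left 11 SCI and 38 sham peaks, and with scores of at least 10 there were 9 and 27, and without the scores of square-root form 18 SCI peaks were left. With the sham list shortened to the number of SCI peaks, 30 sham peaks were left and the ratio of sham to SCI peaks fell to 0.968, which follows from the equal lengths of the lists; under the other 7 settings the ratio lay within its interval. Genes with an SCI peak numbered 6 inside the gene only and 6 with scores of at least 10, and all 10 kept a sham peak throughout. Genes with more SCI than sham peaks (a count added after the data were seen) numbered 2 within 5 kb and 10 kb (Tgfb1 and Tgfbr2), 0 from the median score up or without the square-root form, and 4 with the shortened sham list (Tgfb1, Tgfb3, Tgfbr2 and Smad2). It was Tgfbr2 alone at 50 and 100 kb, Tgfb1 alone inside the gene and Tgfb3 alone with scores of at least 10. The share of SCI peaks that were shared lay between 9.68% (overlap of at least 50%, which kept 3 of 6 and none in the top 10%, or shortened sham list) and 33.3%, within its counting interval throughout. No paired analysis was possible because each condition has 1 ChIP library. Unknown depth limits every comparison of numbers between the lists, and the unknown score scale also limits the one with scores of at least 10.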
